A study of Arabidopsis thaliana with 18 samples.

Results

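The ref5-1 med5a-1 med5b-1 triple mutant of Arabidopsis thaliana was compared with wild type over 6 of the 18 RNA-seq libraries of the series, 3 for each genotype, and all genes of the count table were used. Of 33602 gene IDs, 19897 had enough reads to be tested. The 3 ref5-1 libraries and the 3 libraries of the med5a-1 med5b-1 double mutant, called med5 here, carry the same alleles singly or as a pair and were used to say which changes each of them had. All plants were of the Columbia-0 accession, and each library came from a pool of 5 whole rosettes taken from different pots at an age of 18 days. Plants grew under 16 h of light and 8 h of dark and were harvested 6.5 h after subjective dawn. The question was which transcripts that the ref5-1 allele altered were back at the wild-type level once the MED5 alleles were added, and which were not.

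CYP83B1, the gene altered in ref5-1 by a missense allele, encodes the cytochrome P450 that takes indole-3-acetaldoxime into indole glucosinolate synthesis. When this step is slow, the aldoxime can be drawn into auxin instead, and plants with ref5-1 also make less of the phenylpropanoids, the phenylalanine-derived compounds that include lignin precursors and sunscreen esters. MED5A and MED5B are paralogous subunits of Mediator, the complex that connects transcription factors with RNA polymerase II, and both are known as repressors of phenylpropanoid accumulation.

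Promoter sequences of 5 genes are printed here because they stand for the main patterns described in the later paragraphs. KFB39 and AT3G13310 were higher than wild type in ref5-1 and lower than wild type in the triple mutant. COR15A was high in ref5-1 and not in the triple mutant, LTP4 was high in both, and GH3.3 was high in both and higher still in the triple mutant. Each sequence is the 250 bases before the gene start, 5′ to 3′ on the strand of the gene, read from the RefSeq TAIR10.1 genome. Capitals mark the motifs ACGTG (the core of abscisic acid response elements), CCGAC (the core of cold and drought response elements), TGTCTC (an auxin response element), TTGAC (the core of W-boxes) and AAATATCT (the evening element of clock-regulated promoters), searched on both strands.
KFB39, chr2:18253360-18253609, plus strand: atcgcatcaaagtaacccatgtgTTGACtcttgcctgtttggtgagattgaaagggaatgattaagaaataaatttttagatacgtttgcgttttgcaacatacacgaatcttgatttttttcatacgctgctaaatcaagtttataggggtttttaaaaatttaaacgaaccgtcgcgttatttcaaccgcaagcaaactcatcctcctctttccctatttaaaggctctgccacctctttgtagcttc
AT3G13310, chr3:4311630-4311879, minus strand: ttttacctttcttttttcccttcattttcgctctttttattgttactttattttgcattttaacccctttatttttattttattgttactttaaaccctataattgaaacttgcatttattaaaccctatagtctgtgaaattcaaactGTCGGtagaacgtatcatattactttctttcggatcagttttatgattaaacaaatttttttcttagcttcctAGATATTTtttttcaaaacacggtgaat
COR15A, chr2:17712331-17712580, minus strand: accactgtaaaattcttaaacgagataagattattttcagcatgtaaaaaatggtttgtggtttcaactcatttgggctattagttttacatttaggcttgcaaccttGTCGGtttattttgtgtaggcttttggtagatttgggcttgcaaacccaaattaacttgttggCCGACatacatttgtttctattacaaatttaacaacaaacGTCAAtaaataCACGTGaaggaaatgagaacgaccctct
LTP4, chr5:23925958-23926207, minus strand: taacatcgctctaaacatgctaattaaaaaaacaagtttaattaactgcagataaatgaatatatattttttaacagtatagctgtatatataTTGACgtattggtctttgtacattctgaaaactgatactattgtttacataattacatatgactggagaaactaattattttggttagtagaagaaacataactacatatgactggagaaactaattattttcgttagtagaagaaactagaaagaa
GH3.3, chr2:9866563-9866812, minus strand: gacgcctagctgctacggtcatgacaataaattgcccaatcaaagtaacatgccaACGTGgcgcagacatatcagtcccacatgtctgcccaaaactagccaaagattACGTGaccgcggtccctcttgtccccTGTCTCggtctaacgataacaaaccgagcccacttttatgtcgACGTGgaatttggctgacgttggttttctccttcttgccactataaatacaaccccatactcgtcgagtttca
The KFB39 window reaches into the neighbouring gene AT2G44140. In COR15A the 2 ACGTG matches overlap in CACGTG, which reads alike on both strands. A match describes the letters of a window and no binding was measured.

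Libraries of the 4 genotypes held between 19578169 and 33193849 gene counts, and the triple mutant spanned both ends of this range. Levels are given as CPM, counts scaled to the size of the library, in the order of replicates 1, 2 and 3, and 1 CPM was worth 19.58 counts at the lowest depth. A gene was called when its adjusted p was under 0.05 in edgeR's quasi-likelihood test with Benjamini-Hochberg adjustment over all tested genes, log2 fold changes are given ± SE, and n = 3 libraries in every genotype. Unless a sentence says otherwise, a call printed for a single gene was also obtained with each library of its comparison left out in turn. The libraries are biological triplicates per the labels, and their spread is all that the p-values measure. Wild-type replicate 3 stood apart in jasmonate genes, with a summed level of the 19 listed genes of 6353 CPM in the highest and 1353 CPM in the lowest wild-type library. In triple mutant replicate 1 the summary line for non-unique alignments held 25.35% of the total of gene and summary lines, against 5.208% to 5.769% in wild type. As for the tissue, 11 nuclear photosynthesis genes summed to 62100 to 63780 CPM in wild type and to 56380 to 70510 CPM in the triple mutant, and the only root marker of 9 with enough reads to be tested, CASP1, was at 0.0399, 0.0375 and 0.0759 CPM in wild type and 0.475, 0.628 and 0.193 CPM in the triple mutant. CASP1 was called higher (adjusted p = 0.0162, with too few wild-type counts for a fold), a call lost without wild-type replicate 1 or 2 or triple mutant replicate 2, and its part in other results was not tested.

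The targeted genes were read first. MED5B (AT2G48110) was at 25.6, 23.5 and 24.3 CPM in wild type and at 6.92, 7.79 and 7.6 CPM in the triple mutant (log2 fold change −1.71 ± 0.09, adjusted p = 8.76e-10). MED5A (AT3G23590) was at 52.2, 50.8 and 45.4 CPM in wild type and at 38, 37.3 and 40.8 CPM in the triple mutant (log2 fold change −0.36 ± 0.091, adjusted p = 0.0103). Every triple mutant library was below every wild-type library for both genes, with a far larger gap for MED5B. CYP83B1 (AT4G31500) was at 199.7, 212 and 349 CPM in wild type and 177, 202 and 214 CPM in the triple mutant (adjusted p = 0.21), and since the ref5-1 allele changes the protein, this level checks no label.

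Against wild type the triple mutant had 3800 called genes, 19.1% of those tested, with 2185 higher (11%) and 1615 lower (8.12%). The median log2 fold change of all tested genes was −0.002. Of the called genes, 889 were at least 2-fold higher and 240 at least 2-fold lower. The parents had fewer calls against the same wild-type libraries, namely 1735 genes (8.72%; 1018 higher, 5.12%, and 717 lower, 3.6%) in ref5-1 and 155 genes (0.779%) in med5. Because these comparisons share their wild-type libraries, the values are set side by side and no overlap was tested. Of the 3800 genes, 991 were called in the same direction in ref5-1 and 113 in med5, 27 of them in both. The other 2723 (71.7%) were called in that direction in neither parent. Some of them, KFB50 and LHY among them, were called the opposite way in ref5-1. The count is a statement about the threshold and does not show that the genes differed between the triple mutant and its parents. The count of 3800 fell to 2406 without wild-type replicate 2 and to 2482 without triple mutant replicate 2, and the ref5-1 count fell to 914 and 716 without wild-type replicates 1 and 2. The med5 count was 52 and 78 without wild-type replicates 1 and 2 and 76 and 66 without med5 replicates 1 and 3.

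The 1735 genes called in ref5-1 were sorted by their level in the triple mutant. A gene counted as returned when it was called back against ref5-1 (2149 genes were called between triple mutant and ref5-1, 10.8%), was not called against wild type, and had a 95% confidence interval within 1.5-fold of wild type. By this rule 228 genes (13.1%) returned, 137 of which had been higher and 91 lower in ref5-1. A further 86 genes (4.96%) were called back with a wider interval, so their return to the wild-type level itself was not settled at this depth and spread. Most genes stayed changed: 970 (55.9%) were called against wild type in the same direction and not called back, and 21 (1.21%) were called against wild type and also partly back. Another 22 (1.27%) passed wild type and were called in the opposite direction, and 408 (23.5%) met none of these conditions. Among the 555 stayed genes that had risen, the median log2 fold change over wild type was 0.77 in ref5-1 and 0.98 in the triple mutant, and among the 415 that had fallen it was −0.48 and −0.59. The 137 returned genes that had been higher had medians of 0.50 in ref5-1 and −0.026 in the triple mutant. The comparisons share libraries and the sorting used both of them, so counts and medians are descriptions, and fold changes and p-values printed for a gene named by its class are those that the sorting used.

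These counts moved with single libraries. Returned genes numbered 123 and 93 without wild-type replicates 1 and 2, 139 without ref5-1 replicate 1, and 136 and 142 without triple mutant replicates 2 and 3. Stayed genes of both kinds numbered 517 and 429 without wild-type replicates 1 and 2, against 991 with all libraries. Genes past wild type in the opposite direction numbered 11, 12 and 12 without wild-type replicates 1, 2 and 3 and 12 without triple mutant replicate 2. The count called between triple mutant and ref5-1 was 1263 without ref5-1 replicate 1, and 897 and 1159 without triple mutant replicates 2 and 3.

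**Figure D1:**
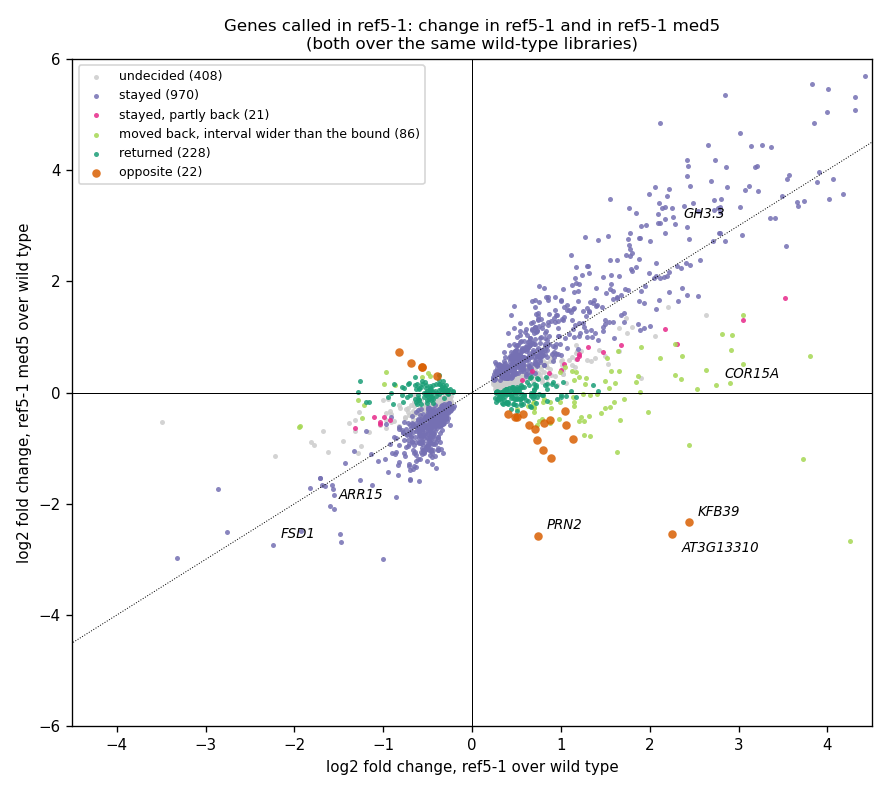
Log2 fold change over wild type in ref5-1 (horizontal) and in the ref5-1 med5 triple mutant (vertical) of genes called in ref5-1, one point per gene, coloured by class; 1717 of the 1735 genes are drawn and 18 lie outside the axes. The 970 stayed genes lie along the diagonal, the 228 returned genes lie near a vertical value of 0, and the 22 opposite genes lie in the other quadrants.

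The genes that passed wild type in the opposite direction held regulators of the phenylpropanoid pathway. Of the 22, 17 were higher in ref5-1 and lower in the triple mutant than wild type, with median log2 fold changes of 0.80 and −0.59, and their median in med5 was −0.60. KFB39 (AT2G44130), an F-box protein with Kelch repeats through which phenylalanine ammonia-lyase is turned over, was at 11.4, 12.2 and 12.3 CPM in wild type and rose to 70.5, 52.5 and 72.4 CPM in ref5-1. It was at 1.79, 1.72 and 2.21 CPM in med5 and 2.43, 2.67 and 1.93 CPM in the triple mutant (log2 fold change −2.33 ± 0.16, adjusted p = 3.26e-08 over wild type; log2 fold change −4.78 ± 0.16, adjusted p = 8.43e-13 over ref5-1). No library of the triple mutant reached the level of any wild-type or ref5-1 library, while its libraries lay within or just above the range of med5 (triple mutant over med5 log2 fold change 0.32 ± 0.21, adjusted p = 0.368). KFB50, another F-box protein of this kind, was at 54.2, 58.1 and 66.6 CPM in the wild type, 145, 106 and 119.6 CPM in ref5-1 and 39.2, 42.6 and 37.5 CPM in the triple mutant (log2 fold change −0.58 ± 0.15, adjusted p = 0.0102 over wild type). MYB4, a transcriptional repressor of cinnamate 4-hydroxylase, was at 22.3, 20.5 and 24.8 CPM in the wild type, 40.9, 32.7 and 31.9 CPM in ref5-1, 14.9, 13.4 and 14 CPM in med5 and 15.4, 15.2 and 14.4 CPM in the triple mutant (log2 fold change −0.59 ± 0.1, adjusted p = 3.71e-04 over wild type). For both genes all ref5-1 libraries were above and all triple mutant libraries below the wild-type libraries.

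Of the 22, PRN2 and AT3G13310 fell furthest below wild type. PRN2, a member of the pirin family, was at 21.9, 21.2 and 21.3 CPM in the wild type, 32.9, 36.7 and 38.5 CPM in ref5-1, 3.88, 4.53 and 3.68 CPM in med5 and 3.69, 2.98 and 4.28 CPM in the triple mutant (log2 fold change −2.57 ± 0.14, adjusted p = 9.39e-10). AT3G13310, a small J-domain protein, was at 12.7, 12.6 and 15.6 CPM, 67.7, 56.7 and 69.6 CPM, 2.3, 2.98 and 2.8 CPM and 2.59, 2.39 and 2.02 CPM in the same order (log2 fold change −2.54 ± 0.14, adjusted p = 1.17e-09). In both genes the med5 and triple mutant libraries were interleaved and all lay below wild type, which lay below ref5-1. KFB39, KFB50, MYB4, PRN2, AT3G13310, ARFB1A and AT1G66830 were the 7 of the 22 that kept all 3 calls, in ref5-1 and in the triple mutant over wild type and between both mutants, with each library left out. Between triple mutant and med5, 20 of the 22 were not called, and over all tested genes only 10.4% were called. The exceptions were LHY, a clock transcription factor (log2 fold change 0.39 ± 0.085, adjusted p = 0.00611), and AT5G22860 (log2 fold change 0.49 ± 0.14, adjusted p = 0.0266). The call of AT5G22860 was lost without med5 replicate 1 or 3 or triple mutant replicate 3. MYB7, a relative of MYB4 with similar repressor activity, moved back from 10.3, 7.11 and 8.39 CPM in ref5-1 to 3.64, 3.11 and 3.22 CPM, beside wild-type libraries at 3.47, 2.4 and 4.4 CPM (triple mutant over ref5-1 log2 fold change −1.38 ± 0.27, adjusted p = 0.00457). J11, a chloroplast J-domain protein, moved from 112, 108 and 120 CPM to 25, 34.3 and 36.8 CPM, beside wild-type libraries at 39.6, 39 and 45.6 CPM (log2 fold change −1.82 ± 0.15, adjusted p = 3.14e-06 over ref5-1).

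The evening element AAATATCT was present in the 250-base window of 8 of the 22 genes (36.4%), against 4.79% of 27437 protein-coding windows. The 8 were AT1G66830, AT3G13310, CCL, KFB50, AT4G13800, FBA5, AT5G22860 and ESE3. Of these, only AT1G66830, AT3G13310 and KFB50 were among the 7 genes that kept all 3 calls with each library left out. Of the other motifs, TTGAC was in 11 of 22 (50%; 44.9% of all windows), ACGTG in 6 (27.3%; 22.9% of all), TGTCTC in 3 (13.6%; 10.9% of all) and CCGAC in 2 (9.09%; 12% of all). The genes were chosen by their levels and the shares were not tested.

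**Figure D2:**
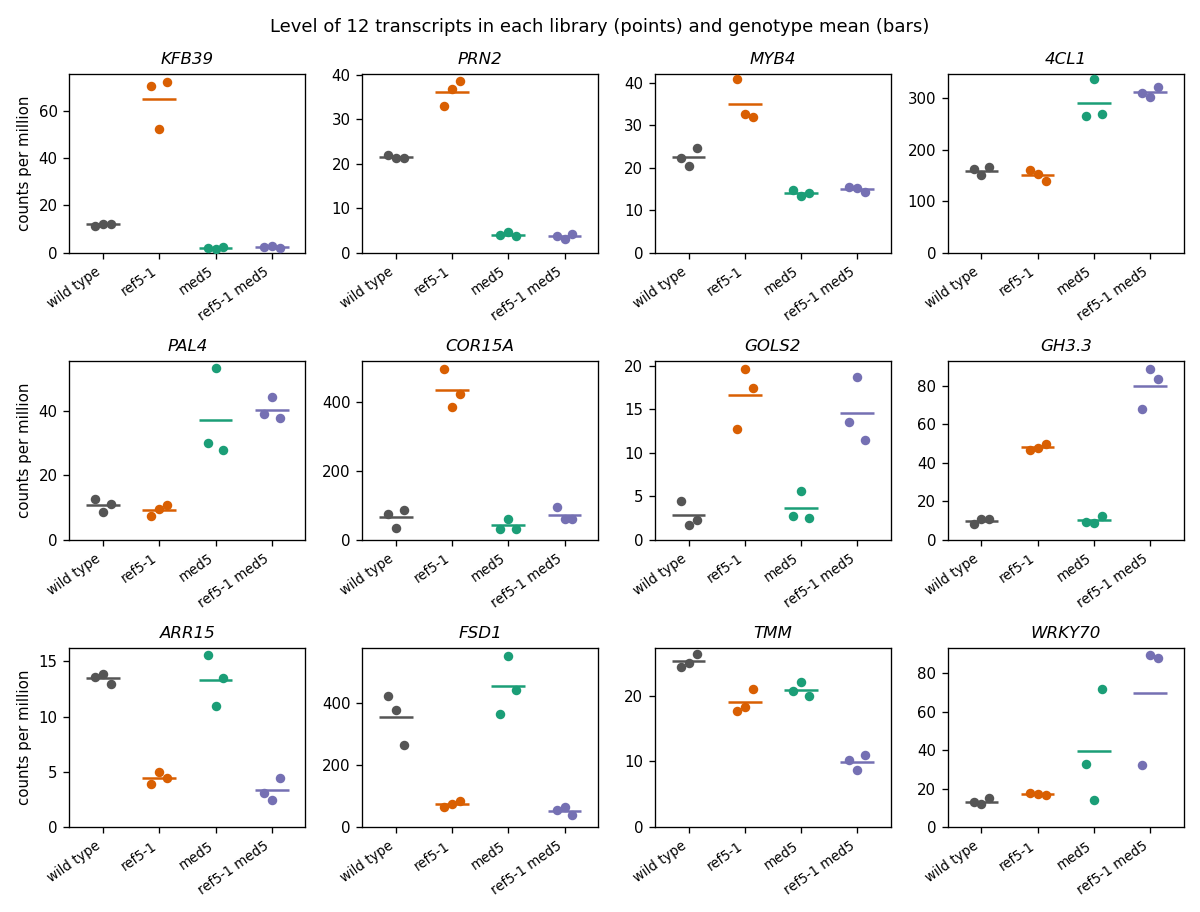
Level in CPM of 12 genes in each library of wild type, ref5-1, med5 and the triple mutant, one panel per gene and one point per library. KFB39, PRN2 and MYB4 are above wild type in ref5-1 and below it in both genotypes with the med5 alleles, COR15A is high in ref5-1 alone, and GH3.3 is high in ref5-1 and the triple mutant.

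Enzyme genes of the phenylpropanoid pathway were higher in the triple mutant than in wild type. Of 22 tested genes for the general pathway and monolignol synthesis, 15 rose and none fell, beside 11% and 8.12% of all genes. Their median log2 fold change was 0.45 beside −0.002 over all genes. The listed genes summed to 2689 to 2983 CPM in wild type and 3677 to 3733 CPM in the triple mutant. In med5, 6 rose and none fell (over all genes 0.337% and 0.442%). In ref5-1, 3 rose and 2 fell, but none rose when wild-type replicate 1 or 2 or ref5-1 replicate 2 was left out, 1 rose with ref5-1 replicate 1 or 3 left out, and 1 fell with the omission of wild-type replicate 2 or 3 or of ref5-1 replicate 2. Against ref5-1 the triple mutant had 14 higher and 1 lower (over all genes 6.09% and 4.71%), and the 1 was not called without any of the ref5-1 replicates or triple mutant replicate 2 or 3. Between triple mutant and med5, 2077 genes were called (10.4%; 1078 without med5 replicate 1 and 1274 without triple mutant replicate 2). Of the listed genes 7 were higher and none lower in the triple mutant (over all genes 6.24% and 4.20%). The count of 7 was 1 without med5 replicate 1, 2 without med5 replicate 3 and 3 without triple mutant replicate 2 or 3.

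PAL4, a phenylalanine ammonia-lyase gene of the entry step, was at 12.7, 8.47 and 11.2 CPM in the wild type, 7.24, 9.53 and 10.8 CPM in ref5-1, 30.1, 53.2 and 27.8 CPM in med5 and 39.1, 44.2 and 37.7 CPM in the triple mutant (log2 fold change 1.91 ± 0.26, adjusted p = 1.64e-04 over wild type). All its libraries with the med5 alleles were above all those without. PAL1 went from 200, 223 and 298 CPM in wild type to 373, 329.8 and 379 CPM in the triple mutant (log2 fold change 0.58 ± 0.13, adjusted p = 0.00394). 4CL1, which encodes the main 4-coumarate:CoA ligase, was at 162, 150.3 and 165 CPM in wild type and 311, 301 and 322 CPM in the triple mutant (log2 fold change 0.97 ± 0.095, adjusted p = 1.74e-06). 4CL2, another ligase of this family, was at 9.73, 9.94 and 11.6 CPM and 27.1, 24.3 and 27.9 CPM (log2 fold change 1.34 ± 0.11, adjusted p = 1.61e-07). The groups did not overlap for any of these genes. CCOAOMT1, which methylates caffeoyl-CoA on the way to lignin, was at 284, 279 and 298 CPM in wild type and 503, 482 and 499 CPM in the triple mutant (log2 fold change 0.79 ± 0.073, adjusted p = 9.75e-07). CSE, caffeoylshikimate esterase, rose by a log2 fold change of 0.66 ± 0.082 (adjusted p = 2.54e-05), and C4H, the P450 that hydroxylates cinnamate, by 0.39 ± 0.077 (adjusted p = 0.0017). PAL3 and UGT84A2 counted as returned, but their calls in ref5-1 were lost with several single libraries left out, among them wild-type replicate 2 and ref5-1 replicates 1 and 2, and for UGT84A2 so was its call against ref5-1. HCT, which makes shikimate esters, also returned. It was at 191, 191 and 174 CPM in the wild type, 129, 159 and 144 CPM in ref5-1 and 201, 209 and 206 CPM in the triple mutant (log2 fold change −0.36 ± 0.076, adjusted p = 0.00577 in ref5-1 over wild type; log2 fold change 0.51 ± 0.076, adjusted p = 4.67e-04 in the triple mutant over ref5-1).

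Flavonoid genes, which share early precursors with lignin, did not rise with them. Of 24 tested members none rose and 5 fell against wild type (median log2 fold change −0.29), beside 11% and 8.12% of all genes. Only 1 fell when wild-type replicate 3 or triple mutant replicate 2 or 3 was left out. Against ref5-1, 15 of 24 were lower and none higher (median −1.05), beside 4.71% and 6.09% of all genes. Without triple mutant replicate 2, 8 were lower. The list summed to 983.4 to 1711 CPM in wild type and 888.2 to 1187 CPM in the triple mutant. GL3, a bHLH regulator of anthocyanin genes and trichomes, was at 2.39, 3.52 and 3.94 CPM in wild type and 1.16, 1.76 and 0.722 CPM in the triple mutant (log2 fold change −1.39 ± 0.27, adjusted p = 0.00161), and all triple mutant libraries lay below wild type.

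**Figure D3:**
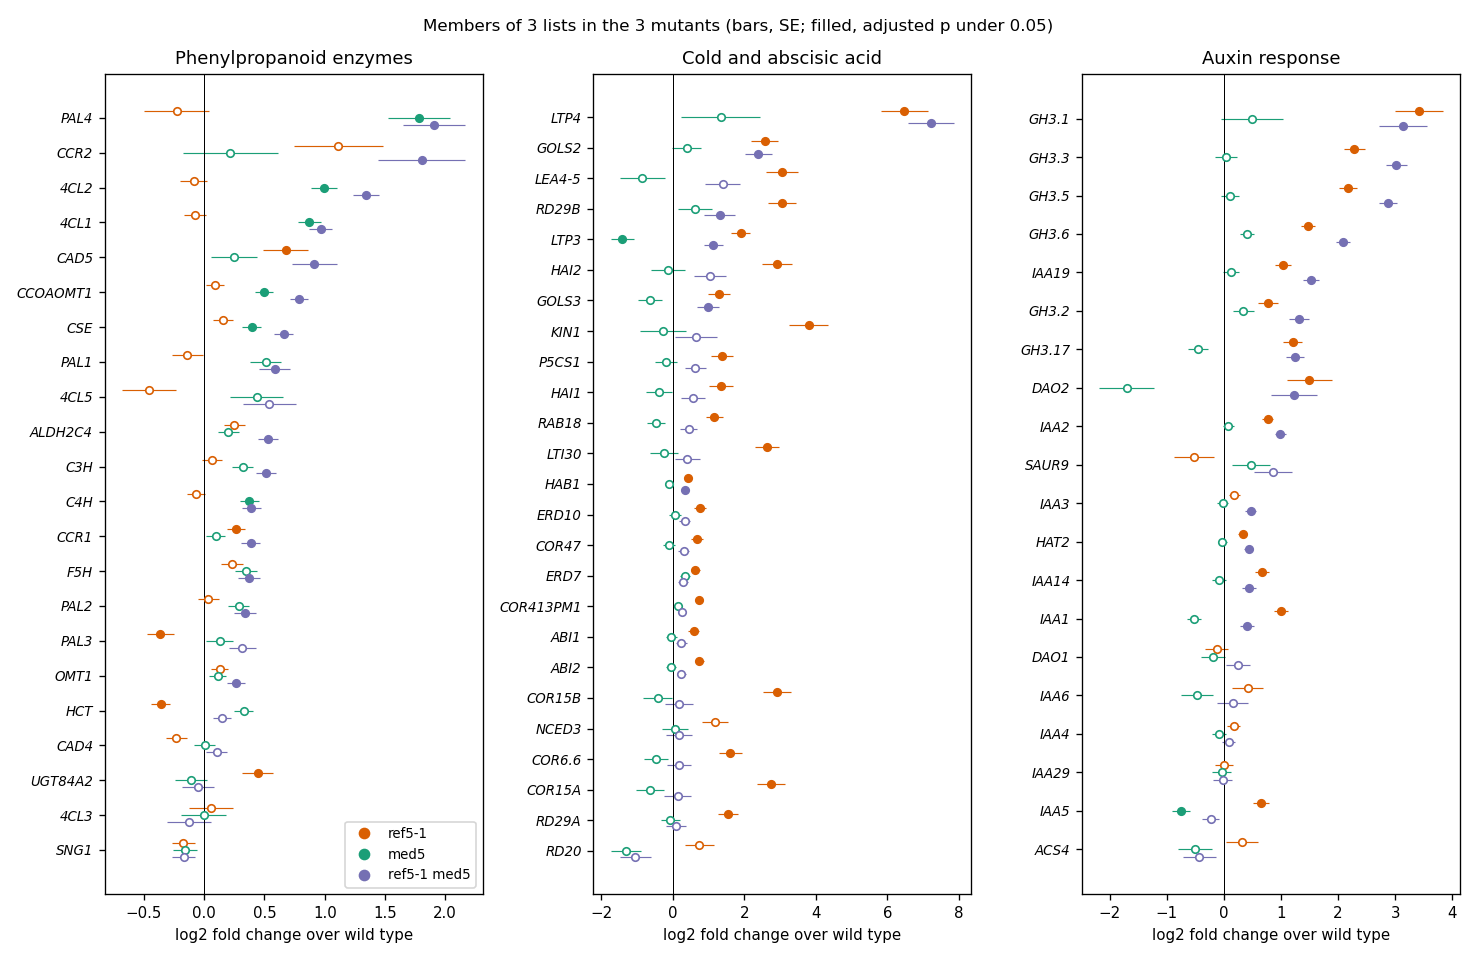
Log2 fold change over wild type ± SE of each member of the phenylpropanoid, cold and abscisic acid, and auxin response lists in ref5-1, med5 and the triple mutant, with filled symbols for called genes. Of the phenylpropanoid genes 15 are called in the triple mutant, of the cold genes 23 are called in ref5-1 and 6 in the triple mutant, and of the auxin genes 13 are called in each of these genotypes.

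Cold and abscisic acid response genes were high in ref5-1, and most of them were not called in the triple mutant. Of 25 tested genes, 23 were higher in ref5-1 than in wild type and 6 in the triple mutant. Over all genes these shares were 5.12% and 11%, and the list medians were log2 fold changes of 1.38 and 0.35. Between triple mutant and ref5-1, 12 were lower and none higher (over all genes 4.71% and 6.09%). Against med5, 7 were higher and none lower in the triple mutant (over all genes 6.24% and 4.20%; list median 0.66). With each library left out 5 to 14 were higher, and the 14 were without med5 replicate 2. By class, 2 of the 23 returned, 8 moved back with an interval wider than 1.5-fold, 5 stayed, 1 stayed while partly back and 7 met none of the conditions. The returned genes were COR413PM1, whose call against ref5-1 was lost without triple mutant replicate 3, and ABI2, whose call was lost without ref5-1 replicate 2 or triple mutant replicate 2 or 3.

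COR15A (AT2G42540), a chloroplast protein that protects membranes against freezing, was at 73.8, 35.7 and 85.7 CPM in the wild type, 498, 385 and 423 CPM in ref5-1, 30.9, 61.9 and 32.8 CPM in med5 and 94.8, 60.2 and 60.2 CPM in the triple mutant. The triple mutant libraries fell within the wild-type range or just above it (log2 fold change 0.14 ± 0.38, adjusted p = 0.836 over wild type), and all ref5-1 libraries were far above (triple mutant over ref5-1 log2 fold change −2.6 ± 0.4, adjusted p = 0.00176). Its paralog COR15B went from 80.8, 61.2 and 75.4 CPM in ref5-1 to 11.6, 11 and 10.2 CPM, beside wild-type libraries at 9.93, 4.91 and 14.2 CPM (log2 fold change −2.73 ± 0.39, adjusted p = 0.00109 over ref5-1). RD29A, a classical marker of cold, drought and abscisic acid, went from 144, 115 and 107 CPM to 56.3, 44 and 33.9 CPM, beside wild-type libraries at 44.9, 25 and 56 CPM (log2 fold change −1.45 ± 0.27, adjusted p = 0.0058 over ref5-1). LTI30, a dehydrin, was at 6.83, 5.99 and 3.93 CPM in ref5-1 and 1.16, 1.16 and 1.25 CPM in the triple mutant, with wild-type libraries at 0.678, 0.562 and 1.44 CPM (log2 fold change −2.23 ± 0.32, adjusted p = 3.88e-04 over ref5-1). In these 4 genes the triple mutant and wild-type ranges overlapped and neither overlapped with ref5-1.

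Other genes of the same list stayed high in the triple mutant. GOLS2, which makes galactinol under drought, was at 4.42, 1.73 and 2.28 CPM in the wild type, 12.7, 19.7 and 17.5 CPM in ref5-1 and 13.6, 18.7 and 11.4 CPM in the triple mutant (log2 fold change 2.39 ± 0.38, adjusted p = 6.64e-04 over wild type). LTP4, a lipid transfer protein, was at 0.16, 0.0375 and 0.0759 CPM in wild type, too few counts for a fold, at 8.53, 12.4 and 4.29 CPM in ref5-1 and at 11.3, 10.7 and 20.4 CPM in the triple mutant (adjusted p = 3.29e-06 over wild type). HAB1, a phosphatase that holds back abscisic acid signalling, was at 57.6, 47.9 and 51.1 CPM in the wild type, 71.2, 71.3 and 67.5 CPM in ref5-1 and 66.9, 65.5 and 67.2 CPM in the triple mutant (log2 fold change 0.35 ± 0.079, adjusted p = 0.00468). For all 3 the triple mutant libraries were above every wild-type library and overlapped with or lay near ref5-1. The cold and drought core CCGAC was in 9 of the 25 windows of the list (36%; 12% of all windows) and ACGTG in 11 (44%; 22.9% of all). COR15A holds CCGAC 2 times and the LTP4 window holds neither motif. This pair does not stand for its classes, since GOLS2, which stayed, holds CCGAC and COR15B, which moved back, holds neither.

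Genes of several other families also returned. GASA6, a gibberellin-regulated peptide that promotes growth, was at 252, 258 and 186 CPM in the wild type, 76.6, 114 and 113 CPM in ref5-1 and 189, 234 and 196 CPM in the triple mutant (log2 fold change 1.03 ± 0.17, adjusted p = 0.00176 over ref5-1). EXPA8, an expansin that loosens cell walls, was at 114, 118 and 102 CPM, 38.9, 56.5 and 54.6 CPM and 87.3, 124 and 86 CPM in the same order (log2 fold change 0.99 ± 0.18, adjusted p = 0.00274 over ref5-1). AT2G30740 was at 25.7, 27.7 and 26 CPM, 13.2, 11.4 and 8.63 CPM and 30.7, 30.9 and 30.6 CPM (log2 fold change 1.47 ± 0.12, adjusted p = 4.99e-07 over ref5-1). These 3 were low in ref5-1, without overlap with wild type or the triple mutant. Among genes that had been high, LEA3, a late embryogenesis abundant protein, was at 52.5, 45.2 and 53.7 CPM in the wild type, 139, 112 and 88.7 CPM in ref5-1 and 57.3, 47.4 and 38.9 CPM in the triple mutant (log2 fold change −1.24 ± 0.21, adjusted p = 0.00258 over ref5-1). CYP81F3, an indole glucosinolate hydroxylase, was at 3.87, 3.86 and 5.69 CPM, 11.7, 10.7 and 12.2 CPM and 5.65, 4.74 and 4.43 CPM (log2 fold change −1.23 ± 0.18, adjusted p = 4.00e-04 over ref5-1). SOC1, a flowering activator, was at 80.05, 74.8 and 70.8 CPM, 116, 105 and 98.2 CPM and 62.7, 68.2 and 62.4 CPM (log2 fold change −0.72 ± 0.091, adjusted p = 1.19e-04 over ref5-1). Each of these 3 was higher in every ref5-1 library than in every wild-type and triple mutant library. Of the 10 returned genes with the largest change in ref5-1, GPX7, a glutathione peroxidase, was called back (log2 fold change −0.84 ± 0.18, adjusted p = 0.00987) and lost this call without triple mutant replicate 2. A return to the wild-type level was not always a match with med5. LEA3 was called between med5 and wild type and between triple mutant and med5. CYP81F3 and GPX7 were also called between triple mutant and med5. CYP81F3 lost this call without med5 replicate 1, and GPX7 lost it with several single libraries left out.

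Auxin response genes stayed high. Of 20 tested members 13 rose in the triple mutant and none fell (median log2 fold change 0.67). In ref5-1, 13 were also higher, of which 11 stayed, 1 stayed while partly back and 1 returned. Over all genes 11% rose in the triple mutant and 5.12% in ref5-1. Against med5, 14 of 20 were higher in the triple mutant (over all genes 6.24% were higher). GH3.3 (AT2G23170), which conjugates auxin to amino acids, was at 7.97, 10.6 and 11 CPM in the wild type, 46.5, 47.8 and 49.8 CPM in ref5-1, 9.33, 8.85 and 12.4 CPM in med5 and 67.9, 88.8 and 83.2 CPM in the triple mutant (log2 fold change 3.02 ± 0.19, adjusted p = 3.38e-08 over wild type). Its relative GH3.5 was at 12.4, 13.1 and 11 CPM, 50.8, 50.4 and 63.1 CPM, 11.6, 16.4 and 11.3 CPM and 81.5, 105 and 79.5 CPM (log2 fold change 2.87 ± 0.16, adjusted p = 3.44e-09), and GH3.6 at 50.8, 63.9 and 51.6 CPM, 131, 156 and 176 CPM, 74.1, 79.3 and 66.7 CPM and 228, 261 and 216 CPM (log2 fold change 2.08 ± 0.12, adjusted p = 3.44e-09). In all 3 every triple mutant library was above every ref5-1 library, and these above every wild-type and med5 library.

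The difference between triple mutant and ref5-1 was itself called for GH3.5 (log2 fold change 0.7 ± 0.14, adjusted p = 0.00599) and GH3.6 (log2 fold change 0.61 ± 0.12, adjusted p = 0.00378). For GH3.3 it was also called (log2 fold change 0.74 ± 0.17, adjusted p = 0.0122) but not without ref5-1 replicate 1 or triple mutant replicate 2. Over the list, 6 genes were higher than in ref5-1 and 2 lower (over all genes 6.09% and 4.71%). Without triple mutant replicate 2, 3 were higher. The 2 lower genes were transcriptional repressors of the Aux/IAA family, IAA1 (log2 fold change −0.59 ± 0.12, adjusted p = 0.00545) and IAA5 (log2 fold change −0.89 ± 0.15, adjusted p = 0.00126). IAA1 was still called above wild type, a call lost when wild-type replicate 2 or 3 or triple mutant replicate 1 or 2 was left out. IAA5 counted as returned, and its call in ref5-1 was lost with wild-type replicate 2 left out. IAA19, of the same family, stayed high at 16.8, 23.5 and 16.7 CPM beside wild-type libraries at 6.06, 6.45 and 7.32 CPM (log2 fold change 1.53 ± 0.14, adjusted p = 5.29e-07), with no overlap. TGTCTC was in 7 of the 20 windows of the list (35%; 10.9% of all windows) and 1 time in that of GH3.3.

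Auxin synthesis genes did not follow the response genes. Of 14 genes of tryptophan and auxin synthesis 2 rose and 4 fell (median −0.25), beside 11% and 8.12% of all genes. TAA1, the aminotransferase that makes indole-3-pyruvate, was at 8.89, 8.47 and 8.31 CPM in wild type and 3.91, 4.05 and 3.51 CPM in the triple mutant (log2 fold change −1.16 ± 0.15, adjusted p = 2.74e-05), and YUC4, which converts it to auxin, at 1.67, 2.29 and 2.58 CPM and 0.845, 0.691 and 0.674 CPM (log2 fold change −1.57 ± 0.22, adjusted p = 9.36e-05). Wild-type and triple mutant libraries did not overlap for either. NIT4, a nitrilase, rose by a log2 fold change of 1.16 ± 0.18 (adjusted p = 3.69e-04), and the count of 2 risen genes was 1 without any of the wild-type replicates or without triple mutant replicate 3.

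Type-A response regulators, which cytokinin induces and which damp its signal, were low in ref5-1 and in the triple mutant alike. Of 8 tested genes 7 fell in the triple mutant (median −0.70) and 6 in ref5-1, beside 8.12% and 3.6% of all genes. All 6 genes that fell in ref5-1 stayed. Against med5, 7 were lower (over all genes 4.20%). ARR15 was at 13.6, 13.9 and 13 CPM in the wild type, 3.89, 5.02 and 4.45 CPM in ref5-1, 15.6, 10.9 and 13.5 CPM in med5 and 3.11, 2.48 and 4.43 CPM in the triple mutant (log2 fold change −2.03 ± 0.18, adjusted p = 7.00e-07). ARR16 fell with a log2 fold change of −1.42 ± 0.17 (adjusted p = 1.34e-05), ARR6 with −1.07 ± 0.16 (adjusted p = 1.76e-04) and ARR7 with −0.86 ± 0.12 (adjusted p = 6.62e-05). For ARR15 the libraries with ref5-1 lay below all those without it.

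Superoxide dismutase genes moved apart. FSD1, the iron enzyme of chloroplasts, was at 423, 376 and 263 CPM in the wild type, 65.5, 74.4 and 84 CPM in ref5-1, 365, 551 and 442 CPM in med5 and 55.3, 65.4 and 38.4 CPM in the triple mutant (log2 fold change −2.74 ± 0.34, adjusted p = 1.29e-04). CSD1, the cytosolic copper/zinc enzyme, was at 225, 233 and 311 CPM in wild type and 404, 374 and 437 CPM in the triple mutant (log2 fold change 0.66 ± 0.14, adjusted p = 0.00298), and CCS, the copper chaperone for these enzymes, at 114, 119.8 and 134 CPM and 195, 171 and 180.1 CPM (log2 fold change 0.57 ± 0.14, adjusted p = 0.00938). FSD1 did not overlap between genotypes with and without ref5-1, and CSD1 and CCS did not overlap between triple mutant and wild type. Of 11 tested genes of the superoxide dismutase, copper and iron list 5 rose and 1 fell, beside 11% and 8.12% of all genes. The 5 became 2 without wild-type replicate 1 and 3 when leaving out wild-type replicate 2 or 3 or triple mutant replicate 2 or 3.

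The genes with the largest changes that stayed in ref5-1 and the triple mutant were mostly near 0 CPM in 1 of the genotypes. AT3G01345 was at 370, 337 and 299 CPM in wild type and 0.211, 0.408 and 0.193 CPM in the triple mutant, and it was also near 0 in ref5-1 (0.497, 0.362 and 0.441 CPM) and med5 (0.554, 0.252 and 0.245 CPM). MRD1 was at 28.6, 27.9 and 29.7 CPM in the wild type, 0.29, 0.643 and 0.0803 CPM in ref5-1, 1.45, 1.51 and 0.0981 CPM in med5 and 0, 0.0942 and 0.144 CPM in the triple mutant. For both genes wild type stood apart from all 3 mutants. AT4G15160 was at 0.239, 0.412 and 0.228 CPM in the wild type, 7.74, 9.89 and 7.38 CPM in ref5-1, 0.298, 0.168 and 0.785 CPM in med5 and 25.1, 31.2 and 22.6 CPM in the triple mutant (log2 fold change 1.66 ± 0.24, adjusted p = 5.44e-04 over ref5-1). MLP34, of the major latex protein family, was at 0.678, 0.862 and 1.02 CPM in the wild type, 12.1, 19.1 and 12.2 CPM in ref5-1 and 12.1, 14.7 and 10.06 CPM in the triple mutant (log2 fold change 3.84 ± 0.34, adjusted p = 1.55e-06). AT5G38020 was at 0.917, 0.862 and 1.29 CPM, 13.1, 12.7 and 13.4 CPM and 11.5, 9.77 and 10.2 CPM (log2 fold change 3.35 ± 0.23, adjusted p = 3.01e-08). In the last 3 genes both genotypes with ref5-1 were above all libraries of wild type.

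Stomatal lineage genes were lower in the triple mutant, more so than in either parent for part of them. Of 8 markers 7 fell against wild type (median −1.04), beside 8.12% of all genes. The count was 7 with any library of the comparison left out. In a whole rosette, fewer cells of a type and less RNA per cell cannot be told apart. TMM, a receptor-like protein that patterns stomata, was at 24.4, 25 and 26.4 CPM in the wild type, 17.7, 18.3 and 21.1 CPM in ref5-1, 20.7, 22.1 and 19.96 CPM in med5 and 10.2, 8.73 and 10.9 CPM in the triple mutant. It was below wild type (log2 fold change −1.35 ± 0.11, adjusted p = 1.80e-07), below ref5-1 (log2 fold change −0.94 ± 0.11, adjusted p = 5.41e-05) and below med5 (log2 fold change −1.08 ± 0.11, adjusted p = 5.02e-06), with no overlap in any of the 3 comparisons. BASL, the polarity factor of asymmetric division, was at 7.61, 7.5 and 8.38 CPM in wild type and 3.54, 3.27 and 3.56 CPM in the triple mutant (log2 fold change −1.18 ± 0.16, adjusted p = 5.34e-05). SPCH, the bHLH factor that starts the lineage, was at 10.6, 12.9 and 11.3 CPM in the wild type, 4.93, 7.15 and 8.47 CPM in ref5-1 and 5.44, 4.33 and 6.88 CPM in the triple mutant (log2 fold change −1.08 ± 0.18, adjusted p = 5.19e-04). MUTE, which ends the divisions, fell with a log2 fold change of −1.11 ± 0.24 (adjusted p = 0.00372) and EPF2, a peptide signal of early precursors, with −1.0 ± 0.19 (adjusted p = 0.0013). FAMA, the late factor of guard cell fate, was at 29.1, 28.8 and 29.8 CPM in wild type and 27.3, 29.2 and 26.6 CPM in the triple mutant (log2 fold change −0.077 ± 0.088, adjusted p = 0.582). In ref5-1, 2 markers were called lower, none once wild-type replicate 2 or ref5-1 replicate 1 was left out and 1 with the omission of wild-type replicate 3 or ref5-1 replicate 2. Against ref5-1, 5 of 8 were lower in the triple mutant (over all genes 4.71%), 2 without ref5-1 replicate 3 and 3 without triple mutant replicate 2. Against med5, 5 were lower (over all genes 4.20%), 1 without med5 replicate 1 and 2 without triple mutant replicate 2.

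**Figure D4:**
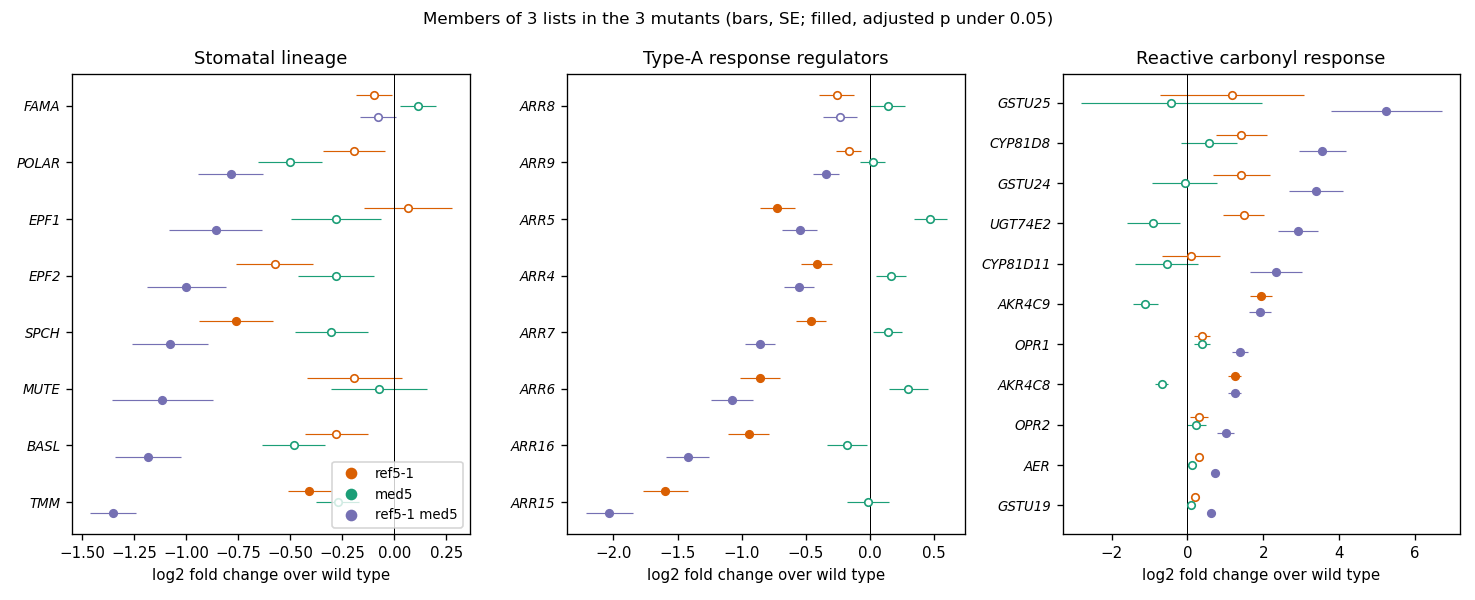
Log2 fold change over wild type ± SE of each member of the stomatal lineage, type-A response regulator and electrophile response lists in ref5-1, med5 and the triple mutant, with filled symbols for called genes. In the triple mutant 7 of 8 stomatal genes and 7 of 8 response regulators are called lower, and 11 of 11 electrophile genes are called higher.

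Electrophile response genes, which detoxify reactive carbonyls and conjugate xenobiotics, were all higher. In the triple mutant 11 of 11 rose against wild type (median 1.91), and 9 to 11 with each library left out. Against med5, 11 of 11 were higher, and 8 to 11 with each library left out. Over all genes these shares were 11% and 6.24%. In ref5-1, 2 of 11 were called higher (over all genes 5.12%), 4 without wild-type replicate 3. AKR4C9, an aldo-keto reductase, was at 5.06, 3.64 and 11 CPM in the wild type, 24.3, 25.3 and 26.6 CPM in ref5-1, 3.24, 2.52 and 3.43 CPM in med5 and 24.8, 19.3 and 30.4 CPM in the triple mutant (log2 fold change 1.91 ± 0.29, adjusted p = 4.49e-04). GSTU19, a tau-class glutathione transferase, was at 333, 309.5 and 331 CPM in wild type and 502, 460.3 and 525 CPM in the triple mutant (log2 fold change 0.61 ± 0.07, adjusted p = 1.01e-05). Both separated wild type from the triple mutant in every library. GSTU24 was at 4.17, 4.49 and 27 CPM in the triple mutant beside wild-type libraries at 0.997, 0.562 and 1.82 CPM (log2 fold change 3.38 ± 0.71, adjusted p = 0.00523), and GSTU25 at 0.317, 0.251 and 16.3 CPM and 0.12, 0.113 and 0.19 CPM, so that triple mutant replicate 3 stood far above the other libraries of its genotype. The call of GSTU25 over wild type was lost without triple mutant replicate 3 or any wild-type replicate. AER, an alkenal reductase, rose by a log2 fold change of 0.74 ± 0.1 (adjusted p = 7.44e-05) and OPR1, an oxophytodienoate reductase-like enzyme, by 1.39 ± 0.21 (adjusted p = 3.63e-04). Against ref5-1, 4 of 11 were higher (over all genes 6.09%), 7 without triple mutant replicate 1 and 2 without replicate 3.

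Salicylate and systemic resistance genes were also higher, with a wide spread among triple mutant libraries. Of 19 genes 14 rose against wild type (median 2.41) and none fell, beside 11% and 8.12% of all genes. In ref5-1 2 were called higher (over all genes 5.12%), 1 without wild-type or ref5-1 replicate 1 or 2. In med5 PR1 alone was called higher (over all genes 0.337%), a call lost without med5 replicate 3 or any wild-type replicate. PR1, a marker of systemic acquired resistance, was at 0.16, 0.188 and 0.493 CPM in the wild type, 0.662, 0.563 and 0.762 CPM in ref5-1, 5.75, 14.1 and 109 CPM in med5 and 31.2, 127 and 138 CPM in the triple mutant (log2 fold change 8.43 ± 1.43, adjusted p = 0.00152). PR2, a glucanase, was at 0.518, 0.637 and 4.21 CPM, 39.2, 41.1 and 27 CPM, 10.8, 2.56 and 16.4 CPM and 36.5, 86.7 and 92.2 CPM (log2 fold change 5.32 ± 0.78, adjusted p = 5.85e-04). WRKY70, a transcription factor of the salicylate response, was at 12.8, 11.7 and 15 CPM in wild type and 32.2, 89.2 and 87.7 CPM in the triple mutant (log2 fold change 2.41 ± 0.51, adjusted p = 0.00585). For these 3 genes replicate 1 was the lowest triple mutant library and was still above every wild-type library, while PR1 in med5 replicate 3 was at the level of the triple mutant. SARD1 and CBP60G, regulators of salicylate synthesis, rose by log2 fold changes of 2.65 ± 0.61 (adjusted p = 0.00916) and 2.86 ± 0.62 (adjusted p = 0.00663). EDS1, ICS1, PBS3, EDS5 and WRKY18 did not pass the test. Of 12 rapid stress transcription factor genes 4 rose (median 1.26), beside 11% of all genes, and 1 rose without wild-type replicate 2. The salicylate list summed to 229.9 to 591.3 CPM over the triple mutant libraries and to 110 to 138 CPM in wild type. Against ref5-1, 8 of 19 were higher (over all genes 6.09%), 14 without triple mutant replicate 1, and 2 without any 1 of the other 5 libraries. Against med5, 3 were higher (over all genes 6.24%). The counts were 0, 1 and 6 without med5 replicates 1, 2 and 3, and 5 and 1 without triple mutant replicates 1 and 3. TTGAC, the core bound by WRKY factors, was in 8 of the 19 windows (42.1%; 44.9% of all).

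**Figure D5:**
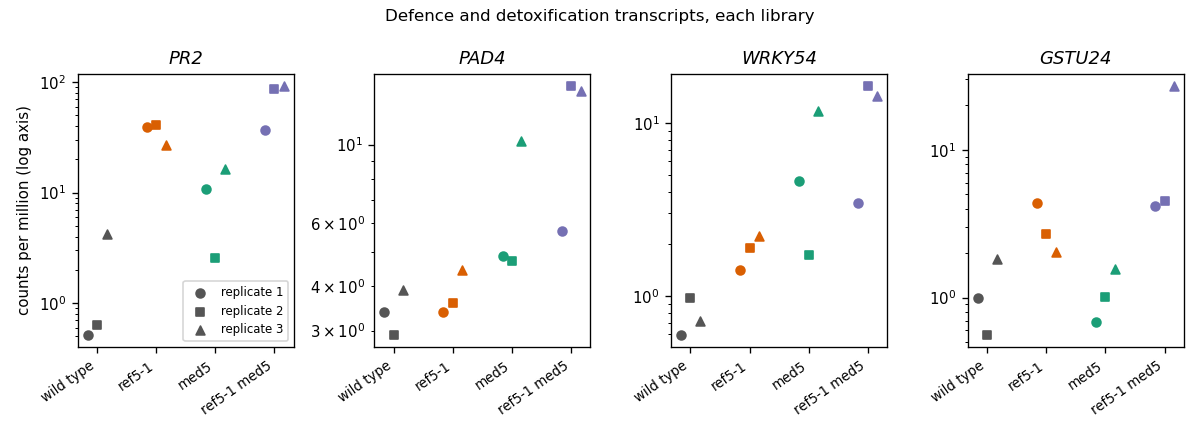
Level of PR2, PAD4, WRKY54 and GSTU24 in CPM on a logarithmic axis, one point per library and replicate, in wild type, ref5-1, med5 and the triple mutant. In PR2, PAD4 and WRKY54 replicate 1 is the lowest triple mutant library, and GSTU24 is at 27 CPM in replicate 3 beside 4.17 and 4.49 CPM in replicates 1 and 2.

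Glucosinolate lists are given beside the 11% of all genes that were higher and the 8.12% that were lower. Of 18 indole glucosinolate genes 5 rose and none fell (median 0.016), and the 5 became 2 without wild-type replicate 1 or triple mutant replicate 2 and 3 without wild-type replicate 2 or triple mutant replicate 3. MYB51, an activator of the indole branch, was at 3.91, 4.99 and 3.72 CPM in wild type and 5.96, 12.2 and 12.6 CPM in the triple mutant (log2 fold change 1.3 ± 0.23, adjusted p = 9.35e-04). Of 27 aliphatic glucosinolate genes 3 rose and 1 fell (median −0.048), with 3 lower without triple mutant replicate 1. MAM3, a chain-elongation enzyme, rose by a log2 fold change of 1.44 ± 0.22 (adjusted p = 4.20e-04). Of 12 breakdown and ER body genes 5 rose, 3 without wild-type replicate 1 or 2. ESM1, a protein that favours isothiocyanate formation, was at 337, 305 and 373 CPM in the wild type, 597, 891 and 767 CPM in ref5-1, 1268, 909 and 1038 CPM in med5 and 1310, 1102 and 1138 CPM in the triple mutant (log2 fold change 1.81 ± 0.17, adjusted p = 2.16e-06). BGLU23, the main ER body glucosidase, was at 95.8, 132 and 155 CPM, 356, 384 and 408 CPM, 62.4, 109 and 67.4 CPM and 424, 438 and 369 CPM (log2 fold change 1.68 ± 0.22, adjusted p = 1.15e-04). ESM1 was above wild type in every library of all 3 mutants, and BGLU23 in those with ref5-1.

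Among 18 sulfate genes 4 rose and 2 fell, beside 11% and 8.12% of all genes. Without wild-type replicate 1 the counts were 2 and 2, and 1 fell without wild-type replicate 2 or 3 or triple mutant replicate 1 or 2. The sulfate transporter SULTR1;2 was at 0.997, 1.09 and 1.25 CPM in wild type and 2.69, 4.52 and 8.47 CPM in the triple mutant (log2 fold change 2.23 ± 0.44, adjusted p = 0.00262). SULTR4;2, a vacuolar sulfate transporter, returned from 18.3, 17.4 and 15.8 CPM in ref5-1 to 9.92, 9.7 and 11.1 CPM, beside wild-type libraries at 10.05, 11.9 and 11.8 CPM (log2 fold change −0.75 ± 0.11, adjusted p = 3.37e-04 over ref5-1). Triple mutant and ref5-1 did not overlap for SULTR4;2. GRXC13, a CC-type glutaredoxin, was at 3.67, 3.3 and 4.7 CPM in wild type and 0.317, 0.597 and 0.481 CPM in the triple mutant (log2 fold change −3.0 ± 0.25, adjusted p = 2.22e-07). FLC, the floral repressor, was at 0.558, 0.263 and 0.721 CPM in wild type and 1.79, 2.39 and 2.69 CPM in the triple mutant (log2 fold change 2.15 ± 0.33, adjusted p = 1.95e-04). Of 17 xylem and secondary wall markers only MYB63, a lignin regulator, was called, beside 11% of all genes that were higher. It was at 0.439, 0.15 and 0.303 CPM in wild type and 1.53, 1 and 2.07 CPM in the triple mutant (log2 fold change 2.34 ± 0.38, adjusted p = 3.47e-04). Without wild-type replicate 3, 3 markers were called. Of 19 jasmonate genes 1, JAZ10, was called lower, beside 8.12% of all genes. JAZ10 lost this call without wild-type replicate 1 or 3 or any of the triple mutant replicates, and 2 jasmonate genes were called lower without wild-type replicate 2.

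A last group was changed in the triple mutant against wild type, ref5-1 and med5 alike. It held 504 genes (2.53% of those tested), 309 higher (1.55%) and 195 lower (0.980%). Of them, 357 were called in the same direction over wild type in neither parent. NAKR2, a protein with a heavy-metal-associated domain, was at 10.8, 9.56 and 9.33 CPM in the wild type, 5.92, 6.27 and 7.5 CPM in ref5-1, 8.4, 7.46 and 5.98 CPM in med5 and 3.06, 3.39 and 3.42 CPM in the triple mutant (log2 fold change −1.59 ± 0.15, adjusted p = 1.06e-06 over wild type). ENODL13, an early nodulin-like protein, was at 18.5, 18.7 and 15.2 CPM, 10.2, 10.7 and 11.4 CPM, 13.3, 13 and 11.2 CPM and 5.75, 5.21 and 6.64 CPM (log2 fold change −1.58 ± 0.12, adjusted p = 8.73e-08). For both genes the triple mutant was below all 9 other libraries of the 4 genotypes. Among the higher genes AOX1D, an alternative oxidase, was at 0.106, 0.911 and 15 CPM in the triple mutant, 0.0414, 0.201 and 0.0803 CPM in ref5-1 and 0, 0.0375 and 0 CPM in wild type. Its calls against ref5-1 and med5 were lost without triple mutant replicate 3, and each of its 3 calls was lost when any 1 replicate of the other genotype compared was left out. WAK3, a wall-associated kinase, was at 1.06, 3.99 and 10.6 CPM in the triple mutant, 0.497, 0.764 and 0.321 CPM in ref5-1 and 0, 0.075 and 0.0379 CPM in wild type, with the call against ref5-1 lost without ref5-1 replicate 1. The count of 504 was 227 and 286 without triple mutant replicates 2 and 3, and 310 without med5 replicate 1.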

How the data were processed

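The authors deposited raw read counts per gene, not normalized. The submitters' processing notes name TopHat2 2.1.0, HTSeq 0.6.1, Trimmomatic and edgeR, and the TAIR10 build. Libraries were poly(A)-selected and stranded per the labels. The strand setting of the counting is not given in the sources used here, so overlapping genes on opposite strands may share reads. Near-identical copies (COR6.6 with KIN1, CYP79F2 with CYP79F1, LHCB and RBCS genes) carry uncertain counts.

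The 5 summary lines of the table were left out. The test was that of edgeR 4.0.16 in R 4.3.3 (TMM, filterByExpr, robust quasi-likelihood fit with 1 mean per genotype over all 18 libraries), and SE was derived from the F statistic. CPM used TMM-scaled library sizes. Groups are the labelled genotypes. Alternatives were DESeq2 1.42.0, other scalings and filters, fewer libraries in the fit, a replicate block, a threshold of 0.01 and leaving out each library. The scripts were tested on simulated data. Symbols came from RefSeq TAIR10.1, which held 32835 of the IDs, and promoters from its genome. The deposited table has no coordinates.

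The genes and the 28 lists (371 of 400 members tested) were chosen with earlier results of these data known. Named were the targeted genes, the 10 highest and 10 lowest called genes without overlap at 5 CPM or more, up to 4 called members per list with the smallest adjusted p, the 10 returned and 10 stayed genes with the largest change in ref5-1, the 5 highest and 5 lowest changed against all 3 other genotypes, and list members called in ref5-1. Some named by this rule are left out for length. PAL4, PAL1, C4H, MUTE, FAMA, AKR4C9, GSTU24, GSTU25, WRKY70, SARD1, CBP60G and the 22 genes past wild type were taken after their values were seen.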

Additional observations from a re-analysis of the deposited data

Results flagged for a closer look

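The summary line for non-unique alignments, which no gene count includes, held 25.35% of the total of gene and summary lines in triple mutant replicate 1. Whether a read could enter this line more than once is not given in the sources used here. The other triple mutant libraries had 3.708% and 6.023%, and wild type 5.208% to 5.769%. The same library had 0.2625% of its gene counts in chloroplast genes, beside 0.04019% to 0.0471% in wild type. It was the lowest triple mutant library for PR1, PR2 and WRKY70. Its part in the results was not tested beyond leaving it out, with which 3565 genes were called against wild type.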

How the results depend on the processing

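For the triple mutant over wild type, no called gene named by the stated rule changed sign under the alternatives. Of these genes, 36 lost the call at an adjusted p under 0.01 and 15 in a fit to the 6 libraries compared. Signs over ref5-1 and med5 were not followed. At an adjusted p under 0.01, 1969 genes were called in the triple mutant, 682 in ref5-1 and 55 in med5 against wild type, 709 against ref5-1 and 899 against med5, with 75 returned, 387 stayed, 7 opposite and 149 changed against all 3 genotypes. DESeq2 called 499 genes in med5 against wild type. A fit to the 6 libraries compared called 1057 genes in ref5-1 against wild type and 1166 between triple mutant and ref5-1. The cause of these differences was not tested. With each library left out in turn the counts ran from 2406 to 3565 for the triple mutant against wild type, 716 to 1695 for ref5-1, 52 to 184 for med5, 897 to 2216 for triple mutant against ref5-1 and 1078 to 2079 against med5. They ran from 93 to 229 for returned, 429 to 999 for stayed, 11 to 21 for opposite and 227 to 732 for genes changed against all 3. Without both wild-type replicate 3 and triple mutant replicate 1, an alternative chosen after seeing the data, 12 genes were opposite, 179 returned and 915 stayed. The same counts stayed within 1.5 times of those reported under the other alternatives, and the median log2 fold change over all genes was −0.0232 with upper-quartile scaling and 0.0032 with RLE.

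Same-numbered triple mutant and wild-type libraries deviated together with correlations of 0.2178, 0.09157 and 0.2774. Differently numbered ones had lower correlations, from −0.2609 to 0.02945. Between triple mutant and ref5-1 the same-numbered values were 0.03617, 0.05156 and −0.02981, and the others ran from −0.1131 to 0.09528. Between triple mutant and med5 they were 0.1939, −0.167 and 0.3475, and the others ran from −0.4337 to 0.2711. Deviations were taken from the genotype mean, so these values are not independent of each other. The labels give no pairs or batch, so the main test did not take the numbers as pairs. With the replicate number as a block 3801 genes were called against wild type, and 996 stayed (926 of them the same genes), 241 returned (210 the same) and 23 were opposite (22 the same). Near 0 CPM, depth limits folds.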

Other observations

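Counts of the smaller lists in the triple mutant against wild type are given beside the 11% of all genes that were higher and the 8.12% that were lower. Of 7 shoot expansins 2 rose, EXPA4 and EXPA5, and none fell. Of 5 MYB repressors of the MYB4 clade, MYB4 alone fell, and of 5 small J-protein and pirin genes PRN2 alone fell. Of 5 Kelch F-box genes KFB39 and KFB50 fell and KFB20 rose, a call of KFB20 that was lost without wild-type replicate 1 or 3 or triple mutant replicate 2 or 3, and 2 rose without triple mutant replicate 1.

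Of 12 flowering time genes 2 rose and 1 fell, and without wild-type replicate 2 FLC alone was called, while none fell without triple mutant replicate 2. Of 10 clock genes LHY rose and PRR9 fell, and neither was called without wild-type replicate 1. LHY also lost its call without wild-type replicate 3 or triple mutant replicate 2, and PRR9 without triple mutant replicate 3. Of 13 other Mediator subunits 1 rose and 1 fell, and neither was called without wild-type replicate 1 or 2 or triple mutant replicate 3. None rose without wild-type replicate 3 or triple mutant replicate 2, none fell without triple mutant replicate 1, and 2 fell without wild-type replicate 3. Of 10 CC-type glutaredoxins 3 rose and 2 fell, with none higher without wild-type replicate 1, 5 without triple mutant replicate 1 and 1 without triple mutant replicate 2 or 3, and 1 lower without wild-type replicate 2 or triple mutant replicate 1 or 3. Of 7 floral markers AG alone fell, a call lost without wild-type replicate 2 or triple mutant replicate 3, and 2 fell without wild-type replicate 3.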
